A study of Heterocephalus glaber and Cavia porcellus and Spalacopus cyanus with 7 samples.

Results

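The transcriptome of guinea pig oocytes was compared with that of naked mole-rat oocytes, gene by gene and by gene function. Genes were paired between the species by their symbol, without regard to case, after uncharacterised loci (symbols that begin with LOC) and symbols that look like dates were left out. Of 26623 gene entries counted in naked mole-rat and 25603 in guinea pig, 15082 were paired in this way. The guinea pig data were 1 library made from the merged oocytes of 3 females aged 6 to 9 months. The naked mole-rat data were 5 libraries, each from 1 of 5 females aged 1 to 8 years, and the labels do not say which library has which age. The titles of replicates 2 to 5 begin with a Y or an O. No source used here explains these letters, and they were not used. All 6 libraries hold untreated oocytes, fully grown or in late growth, that were freed from their follicles by hand and stripped of cumulus cells by pipetting, and their RNA was depleted of ribosomal RNA before directional libraries were made. The study, which asked in which mammals the DNA methylation cofactor Dnmt3l is expressed in oocytes, also holds 1 library of the coruro, another South American rodent, which is not analysed here.

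Guinea pig and naked mole-rat are both hystricognath rodents, the former from a South American branch and the latter from an African one. A growing mammalian oocyte transcribes and stores RNA for its own maturation and for the first cell cycles of the embryo, and it is largely silent in transcription once fully grown. The stored RNA encodes the egg coat, growth factors that act on the surrounding granulosa cells, the machinery of meiosis and fertilisation, and the chromatin proteins that write the DNA methylation of the egg genome. Because the mRNA is stored for days, its level in an oocyte reflects both synthesis and protection from decay.

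Counts assigned to genes totalled 24515642 in guinea pig and 13512223 to 29561451 in naked mole-rat, and the paired genes held 90.5% to 92.4% of them. Values are given as CPM, the counts scaled to a library total of 1000000, so that 3 counts, the limit set here for a count of 0 (for counting error only), equal 0.122 CPM in guinea pig and 0.101 to 0.222 CPM in the naked mole-rat libraries. CPM is not corrected for transcript length, so levels are compared between species for a gene and not between genes. The oocyte identity of the guinea pig library was checked with 4 marker genes. Zp2 and Zp3 are genes of the egg coat, and they had 2069 and 2227 CPM in guinea pig, and the oocyte growth factor genes Gdf9 and Bmp15 had 927 and 857 CPM. In naked mole-rat these genes had 829 to 2588, 709 to 2323, 475 to 1272 and 1096 to 2970.1 CPM over the 5 libraries, so that the guinea pig value lay inside the naked mole-rat range for the first 3 and below it for Bmp15. For Zp3 and Gdf9 this rested on replicate 5, without which guinea pig was above every library. Naked mole-rat replicate 1, which was deposited in a table of its own, stood apart. Across matched genes, which are not independent replicates, its Pearson r of log2(CPM + 1) with the other naked mole-rat libraries was 0.845 to 0.929, against 0.942 to 0.970 among the others. The summed level of 18 granulosa and cumulus markers was 6812 CPM in replicate 1, 1149 to 2176 CPM in replicates 2 to 5 and 787 CPM in guinea pig. Some single markers differed from this order. Has2 had 129.6 CPM in replicate 1, 227 to 464 CPM in replicates 2 to 5 and 1.14 CPM in guinea pig. Inha had 197, 0.550 to 32.9 and 33.5 CPM in the same order.

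With 1 guinea pig library there is no replicate check on its side and no test, and every difference below is a comparison of these libraries. Species, genome assembly, gene models, pooling of females and age differ together between the groups and cannot be told apart. A gene model that is shorter or incomplete in one assembly lowers its count, and reads that fit near-identical copies annotated under other names may be split between them. As in any pool of cells, fewer cells of a type and less RNA per cell cannot be told apart. Genes entered the comparison with a count of 100 or more on either side, that is, in the guinea pig library or in all 5 naked mole-rat libraries. A gene was called higher in guinea pig when its CPM was at least 4 times that of the highest naked mole-rat library, and lower when the lowest naked mole-rat library was at least 4 times the guinea pig CPM, with values under 3 counts in a library set to 3 counts for the ratio. A called gene thus has no overlap between the species. Where a value is set against a range in the text, the guinea pig value comes first and the range covers the 5 naked mole-rat libraries.

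The species shared much of the order of transcript levels, with large exceptions in both directions. Pearson's r of log2(CPM + 1) across matched genes was 0.746 to 0.766 between guinea pig and the 5 naked mole-rat libraries, a description of these libraries. Of 10279 genes compared, guinea pig lay between the lowest and highest naked mole-rat library for 3463 (33.7%), above every library for 3825 (37.2%) and below every library for 2991 (29.1%). The median log2 ratio of guinea pig to the naked mole-rat mean, with the same 3-count limit, was 0.12, with quartiles at -1.08 and 1.34. The guinea pig value was within 2-fold of the mean for 4414 genes, or 42.9%. For comparison, the highest naked mole-rat library was a median of 2.51 times the lowest over the 9381 genes with counts in all 5. In all, 920 genes (8.95%) were called higher in guinea pig and 858 (8.35%) lower, together 17.3%. Without naked mole-rat replicate 1, the calls were 1420 higher and 1058 lower. Because a call is made against the nearest library, leaving out a library can add calls but cannot remove one. Of 184 called genes named, 64 had a ratio more than 1.5 times larger without the nearest library, which was replicate 1 for 49 of them.

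Part of these calls follows from the rule that admits a gene. The count minimum was passed in both species by 6992 genes, in guinea pig alone by 2656 and in naked mole-rat alone by 631, and a gene admitted through 1 species alone is more likely to be called higher in that species. Among the 6992 genes passed in both, 228 (3.26%) were called higher and 330 (4.72%) lower. Most calls in each direction were thus of genes admitted through 1 species alone. Calls were spread over all levels. Of 1324 compared genes with a mean of both species under 10 CPM, 243 were called higher and 115 lower, of 6455 between 10 and 100 CPM 471 and 613, of 2460 between 100 and 1000 CPM 203 and 129, and of 40 at 1000 CPM or more 3 and 1. Among the called genes, 104 of the higher ones had 3 counts or fewer in every naked mole-rat library, and 103 of the lower ones had 3 counts or fewer in guinea pig.

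**Figure D1:**
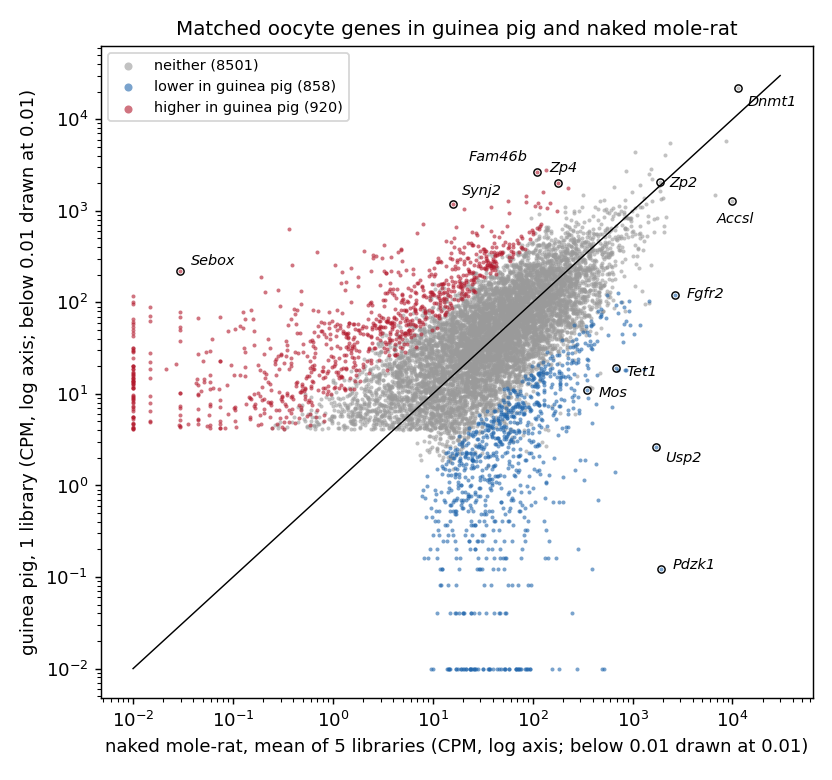
Level of each of the 10279 compared genes in naked mole-rat (x axis, mean CPM of 5 libraries, log scale) and guinea pig (y axis, CPM of 1 library, log scale), with the line of equality. Points in red are the 920 genes called higher in guinea pig, points in blue the 858 called lower, and 12 genes described in the text are ringed.

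Genes of DNA methylation were among those with the most counts in both species. Of the 10 matched genes with the most counts in guinea pig, 4 were also among the 10 with the highest naked mole-rat mean (Dnmt1, Nlrp14, Uhrf1 and Jag1), and of the top 100 genes of each species 43 were shared, as were 202 of the top 500. Dnmt1, the maintenance DNA methyltransferase, was first in both, with 21927 CPM in guinea pig and 5650.2, 12008, 12066, 12218 and 15187 CPM in naked mole-rat replicates 1 to 5. Uhrf1, which brings Dnmt1 to hemimethylated DNA, had 5548 and 1548 to 3279 CPM. For both genes guinea pig was above every naked mole-rat library, and by less than 2-fold over the highest. Nlrp14, a member of the oocyte NLRP family, had 5789.6 CPM in guinea pig and 4393, 11306, 10120.5, 10546 and 6355 CPM in naked mole-rat, so that guinea pig was above replicate 1 and below the other 4. Jag1, a Notch ligand, had 4090.5 and 1189.6 to 2511 CPM.

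The rest of the guinea pig top 10 comprised Tubb4b, a beta-tubulin (4430.4 CPM, against 735 to 1476 in naked mole-rat), the ubiquitin ligase gene Rnf114 (2829 against 775 to 1921), the de novo methyltransferase gene Dnmt3b (2704 against 465 to 1041), Padi6, whose product is needed for the cytoplasmic lattices of mouse oocytes (2508 against 1027 to 2074), and 2 genes called higher. Abcc1, which encodes a membrane efflux pump, had 2809.9 CPM in guinea pig and 154, 135, 67.1, 143 and 177 CPM in replicates 1 to 5, a ratio of 15.9 to the highest of them. Fam46b, which encodes a non-canonical poly(A) polymerase, had 2678 CPM in guinea pig and 100.3, 108, 83.5, 124 and 139.9 CPM in naked mole-rat, a ratio of 19.1. Neither gene overlapped between the species. Conversely, the naked mole-rat top 10 held Accsl, which resembles the plant ACC synthases, at 4068 to 13144 CPM against 1267 CPM in guinea pig, below the lowest library but by less than 4-fold, and called lower without replicate 1. It also held the elongation factor gene Eef1a1 (1500.4 against 5998 to 7524 CPM, 3.998 times below the lowest library, at the limit of a call and called under the other scalings), Ubfd1 (585 against 1304 to 2564 CPM), Bmp15 and Ezr, which encodes the membrane-to-actin linker ezrin (679.9 against 1235 to 2457 CPM). Eef1a1 has many near-identical copies in mammalian genomes, which makes its count uncertain. The receptor gene Fgfr2 was called lower, with 1577, 3229, 2939.6, 2861 and 2804 CPM in replicates 1 to 5 and 122 CPM in guinea pig, a ratio of 13.0 between the lowest library and guinea pig (23.1 without replicate 1).

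Among genes with at least 100 CPM in guinea pig and over 3 counts in each naked mole-rat library, 14 of the 15 with the largest ratio to the nearest naked mole-rat library are described here, and they were 28.3 to 370.3 times higher in guinea pig. Arhgap10, which encodes a GTPase-activating protein, led them with 356 CPM in guinea pig and 0.962, 0.733, 0.724, 0.749 and 0.271 CPM in naked mole-rat replicates 1 to 5. Cidec and Dgat2 both act in the storage of fat. Cidec, which encodes a protein that fuses lipid droplets, had 236 CPM in guinea pig and 1.92, 0.770, 2.24, 0.785 and 1.86 CPM in naked mole-rat, a ratio of 105. Dgat2, which encodes an enzyme of the last step of triglyceride synthesis, had 302 CPM in guinea pig and 3.26, 5.83, 1.16, 3.35 and 1.89 CPM in naked mole-rat, a ratio of 51.9 (90.2 without replicate 2). In both genes the naked mole-rat libraries were all under 6 CPM. Synj2, an inositol phosphatase gene of endocytosis, had 1183 against 13.3 to 20.7 CPM, and Smpd3, which encodes neutral sphingomyelinase, had 313 against 2.81 to 4.49 CPM. Cotl1, whose product binds actin, had 359 against 1.38 to 7.40 CPM, and Prex1, a Rac exchange factor gene, had 219 against 2.13 to 5.50 CPM.

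The other genes of this set shown here have no role in common. Sh2b3, an adaptor of cytokine receptor signalling, had 575 CPM in guinea pig and 2.35 to 12.5 CPM in naked mole-rat, and the calpain gene Capn10 had 721 and 2.03 to 15.2 CPM. Atp6v0a4, a subunit gene of the vacuolar proton pump, had 218 and 0.372 to 4.53 CPM, and the ephrin receptor gene Epha7 had 102 and 0.724 to 2.16 CPM. The others were Ypel1 (371 and 1.52 to 8.95 CPM), Fam161b (224 and 2.24 to 7.71 CPM) and Mblac2 (216 and 1.21 to 7.62 CPM).

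In the other direction, the 15 genes chosen in the same way (at least 100 CPM in every naked mole-rat library and more than 3 counts in guinea pig) were 37.3 to 897 times lower in guinea pig than in the lowest naked mole-rat library. Usp2, a deubiquitinase gene, was among them, with 971, 2095, 1958, 1675 and 1917 CPM in naked mole-rat replicates 1 to 5 and 2.61 CPM in guinea pig, a ratio of 372 (642 without replicate 1). Upp1, which encodes uridine phosphorylase of pyrimidine salvage, had 226, 315, 183, 309.7 and 404 CPM in naked mole-rat and 0.204 CPM, or 5 counts, in guinea pig, a ratio of 897. Txnip, whose product binds thioredoxin and restrains glucose uptake, had 868, 1611, 1473, 1412 and 1205 CPM in naked mole-rat and 18.7 CPM in guinea pig, a ratio of 46.3. Replicate 1 was the lowest naked mole-rat library for Usp2 and Txnip, and it was still far above guinea pig. The proton-coupled peptide transporter gene Slc15a1 had 0.693 against 308 to 515 CPM. Slc16a14, a relative of the monocarboxylate transporters, had 1.22 against 103 to 270.5 CPM. Lct, which encodes the disaccharidase lactase, had 1.92 against 141 to 504 CPM.

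Ttn, the gene of the giant muscle protein titin, had 273, 1035, 712, 801 and 546 CPM in naked mole-rat and 1.39 CPM in guinea pig. Has2, which encodes a hyaluronan synthase and is used as a marker of cumulus cells, had 129.6, 454, 464, 366 and 227 CPM in naked mole-rat and 1.14 CPM in guinea pig. Replicate 1, the library with the highest sum of granulosa markers, had the lowest Has2 level of the 5. Vangl1, a planar cell polarity gene, had 1.468 against 185 to 329 CPM. Riox2, a ribosomal oxygenase gene, had 7.75 against 289 to 540.4 CPM. Gpld1, which encodes a phospholipase that releases GPI-anchored proteins, had 0.653 against 104 to 293 CPM. Inpp1, an inositol phosphatase gene, had 1.88 against 189 to 357 CPM. The others were the actin-like gene Actl8 (0.653 against 115 to 208 CPM), Plekha6 (1.06 against 101 to 219 CPM) and B3gntl1 (7.26 against 445 to 911 CPM).

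**Figure D2:**
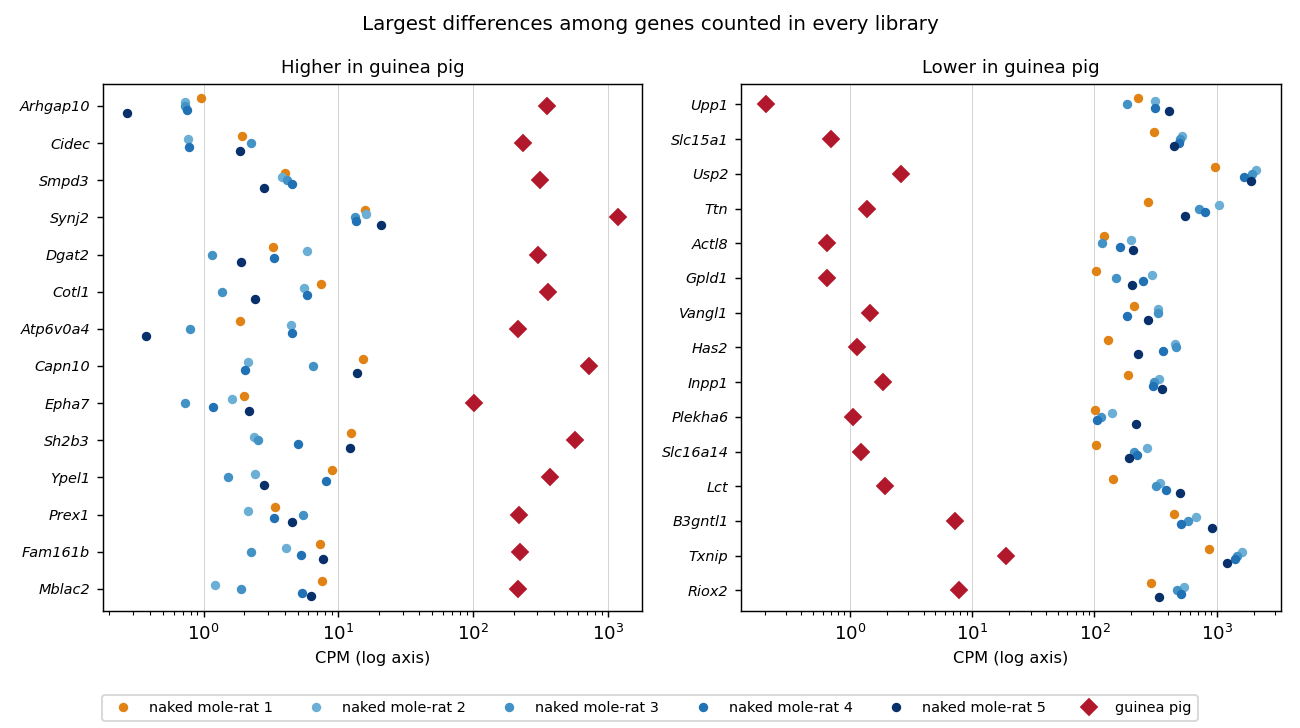
CPM (log axis) of 14 genes higher in guinea pig and 15 lower, with the largest ratios among genes with at least 100 CPM in the higher species and more than 3 counts in every library of the lower one. Diamonds are the guinea pig library and circles the 5 naked mole-rat libraries, with replicate 1 in orange, and no gene overlaps between the species.

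A further set was close to 0 in 1 species. Of called genes with 3 counts or fewer in each naked mole-rat library, the 10 with the highest guinea pig level had 66.7 to 222 CPM in guinea pig. Sebox, a homeobox gene of the oocyte that acts as a maternal-effect gene in mouse, had 222 CPM (5438 counts) in guinea pig, 2 counts in naked mole-rat replicate 1 and 0 in the others. Sox2, a transcription factor gene of pluripotent and neural cells, had 70.4 CPM, against 1 count in replicate 1 and 0 in the others. Hoxa9, a homeobox gene of axial patterning, had 96.6 CPM and 0 counts in all 5 naked mole-rat libraries, at least 435-fold higher with each library at its limit of 3 counts. On the same basis Myo1h, an unconventional myosin gene, with 117 CPM was at least 525-fold higher, and Dsg4, a desmosomal cadherin gene, with 101 CPM at least 455-fold higher. CUNH12orf60, an open reading frame without a gene name, had 66.7 CPM and no counts in naked mole-rat. The others were the glycosyltransferase gene Gbgt1 (88.2 CPM), the lectin gene Clec4g (78.6 CPM), the growth factor gene Fgf18 (69.8 CPM) and Susd3 (67.5 CPM), each with 1 to 3 counts in replicate 1 and 0 counts in the other 4 libraries.

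In the other direction, Pdzk1, which encodes a scaffold that gathers membrane transporters, had 763, 2293, 2632, 2085 and 1953 CPM in naked mole-rat replicates 1 to 5 and 3 counts in guinea pig. Galnt8, an O-glycosylation enzyme gene, had 287, 664, 506, 507 and 622 CPM in naked mole-rat and 0 counts in guinea pig, at least 2345-fold lower than the lowest library at the guinea pig limit of 3 counts (4132-fold without replicate 1). Shisa9, which encodes a partner of glutamate receptors in brain, had 203, 664, 520.1, 575 and 502 CPM in naked mole-rat and 0 counts in guinea pig, at least 1656-fold lower (4103-fold without replicate 1). Gls2, a glutaminase gene known from liver, had 217 to 381 CPM and 0 counts, at least 1770.2-fold lower. Etnppl, an enzyme gene of phosphoethanolamine breakdown, had 94.1 to 269.5 CPM and 0 counts. Glod5 (63.8 to 218 CPM) and Mycbpap (65.9 to 159 CPM) were also at 0 counts in guinea pig. The tyrosine phosphatase gene Ptpn18 (115 to 355 CPM), Map6d1 (63.2 to 139 CPM) and the aldehyde oxidase gene Aox4 (24.3 to 1198 CPM) had 1, 2 and 3 counts there. Aox4 varied widely among the naked mole-rat libraries and was highest in replicates 1 and 5.

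The genes were then grouped by function in 63 lists. A list is described by the number of its members called in each direction, to be read against 8.95% and 8.35% of all compared genes, and by the median log2 ratio of its compared members, to be read against 0.12 for all. The call shares include genes admitted through 1 species alone, and list shares among genes passed in both species were not computed. Counts of members above or below every naked mole-rat library are read against 37.2% and 29.1% of all genes. The median of all genes was -0.07 with TMM factors, 0.29 without naked mole-rat replicate 1, 0.46 over genes with at least 1000 counts and -0.23 with no minimum, so list medians between -0.23 and 0.46 are given no direction. Of the genes of the egg coat and egg surface, 8 of 11 listed symbols were matched and 7 compared, and 2 were called higher and 0 lower. Zp4, a zona pellucida glycoprotein gene that is a pseudogene in mouse, had 2007 CPM in guinea pig and 85.6, 181, 138, 218 and 272 CPM in naked mole-rat replicates 1 to 5, a ratio of 7.37 to the highest. Astl, which encodes the ovastacin protease that cleaves the egg coat after fertilisation, had 678 CPM and 109.8, 165, 81.8, 109.7 and 131 CPM, a ratio of 4.11 that fell under 4 with TMM or median-of-ratios scaling. Cd9, a tetraspanin gene needed for sperm fusion in mouse, had 185 CPM in guinea pig, above all naked mole-rat libraries (21.0 to 67.0 CPM) but called only when replicate 5 was left out. The median of the 7 genes was 1.37, and 0.84 to 2.17 against single naked mole-rat libraries.

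Of 17 compared genes of oocyte growth factors and their receptors, 1 was called higher and 1 lower. Kit, the receptor through which granulosa-derived Kit ligand drives oocyte growth, had 271 CPM in guinea pig and 13.0, 42.2, 54.3, 48.0 and 29.1 CPM in naked mole-rat, a ratio of 4.995. Smad3, a mediator of activin and TGF-beta signals, had 7.91 CPM in guinea pig and 149.6, 39.8, 33.1, 48.5 and 86.0 CPM in naked mole-rat, highest in replicate 1. Bmp15 had 1096, 2970.1, 2430.3, 2316 and 2060.3 CPM in naked mole-rat against 857 in guinea pig. The lowest library, replicate 1, was 1.28 times guinea pig (2.41 without replicate 1), while Gdf9 was inside the range through replicate 5. Of the subcortical maternal complex and its NLRP relatives, only 4 of 13 symbols were matched, and 3 were compared. Zbed3, a member of that complex in mouse, was called higher, with 39.6 CPM in guinea pig and 5.70, 0.0733, 0, 1.07 and 1.08 CPM in naked mole-rat. Tle6, another member, had 11 counts in guinea pig and 5 in naked mole-rat replicate 1, too few to compare.

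Of 18 compared transcription factors of the oocyte, 2 were called higher and 2 lower, 11.1% each and near the 8.95% and 8.35% of all genes. Klf17, a Krüppel-like factor gene of oocytes and early embryos, had 135, 462, 405, 401 and 377 CPM in naked mole-rat and 8.97 CPM in guinea pig, a ratio of 15.001 (42.0 without replicate 1). Npas2, a relative of the circadian factor Clock, had 5.34 against 63.1 to 140.0 CPM. Sohlh1, which acts early in oocyte growth in mouse, had 24.9 CPM in guinea pig and 0.0740, 0, 0.434, 1.39 and 0 CPM in naked mole-rat. Esrrb, an orphan nuclear receptor gene, had 48.1 CPM in guinea pig and at most 1.04 CPM in naked mole-rat. The folliculogenesis regulators Nobox (187 against 24.8 to 73.6 CPM) and Figla (34.3 against 5.99 to 17.9 CPM) were above every naked mole-rat library without a call.

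Of 21 compared maternal effect genes, 1 was called in each direction. Oosp2, which encodes an oocyte-secreted protein, had 668 CPM in guinea pig and 9.84, 27.9, 13.3, 21.6 and 12.4 CPM in naked mole-rat, a ratio of 24.0. Bcas2, a splicing factor gene with a maternal role in mouse, had 8.28 CPM in guinea pig and 112, 183, 214, 199 and 153 CPM in naked mole-rat, a ratio of 13.6. Npm2, the oocyte nucleoplasmin gene, was inside the naked mole-rat range (217 against 139 to 293 CPM).

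Among genes of mRNA storage and translational control, 1 of 28 compared was called higher and 2 lower. Dazl, an RNA-binding activator of translation in germ cells, had 19.1 CPM in guinea pig and 87.5, 206, 195, 201 and 90.02 CPM in naked mole-rat. It was below every naked mole-rat library, with a ratio of 4.58. Cpeb4, a cytoplasmic polyadenylation factor gene, had 86.8 CPM in guinea pig and 10.4, 12.1, 9.49, 18.9 and 7.92 CPM in naked mole-rat, a ratio of 4.60 that fell under 4 with TMM scaling and was 7.19 without replicate 4. Its relative Cpeb1 (1021 against 342 to 732 CPM) and the mRNA-masking protein gene Ybx2 (483 against 96.2 to 183 CPM) were above all naked mole-rat libraries without a call. Of 38 genes of deadenylation and decay, Cnot11 alone was called (281 against 49.7 to 68.0 CPM), and not under TMM or median-of-ratios scaling. The CCR4-NOT adaptor gene Btg4, which drives maternal mRNA clearance in mouse, had 954 against 275 to 772 CPM, and the deadenylase gene Cnot6l had 332 CPM, inside 197 to 524 CPM.

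**Figure D3:**
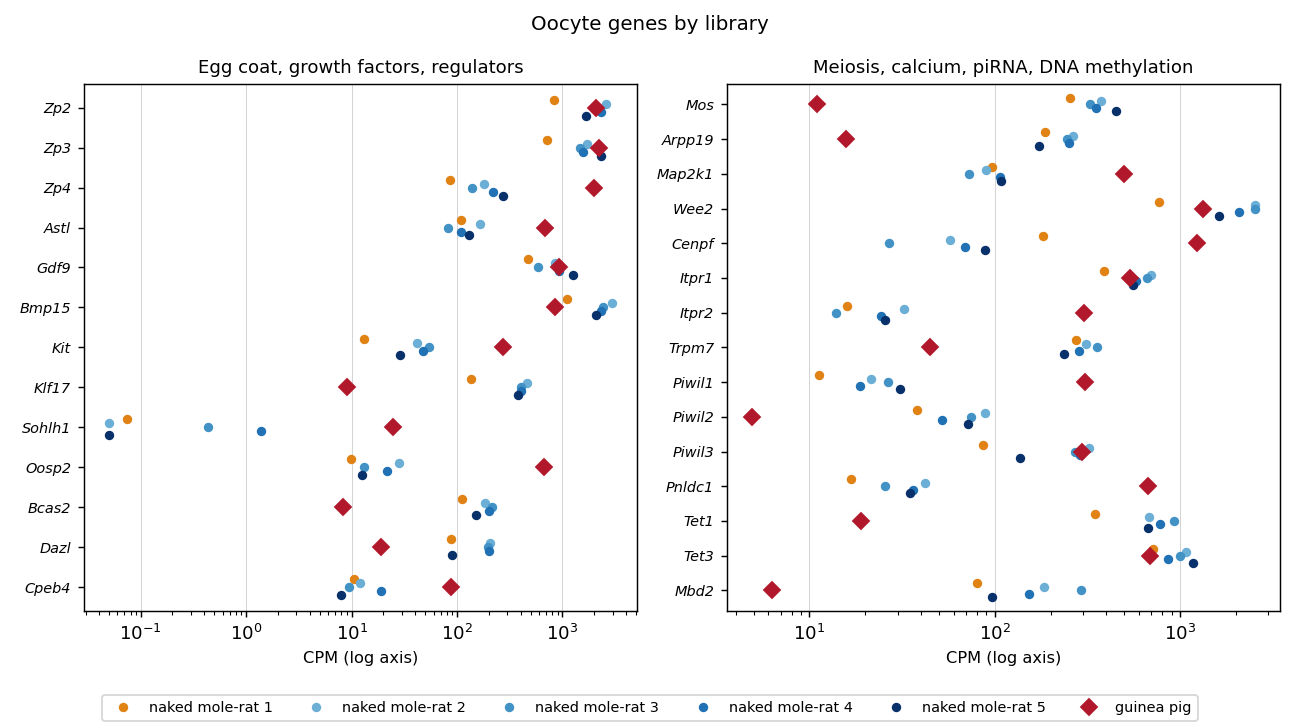
CPM (log axis) of 28 oocyte genes in each library, with guinea pig as diamonds and naked mole-rat replicates 1 to 5 as circles (values under 0.05 drawn at 0.05). Zp2, Zp3, Gdf9, Wee2, Itpr1 and Piwil3 overlap between the species, Wee2 and Itpr1 only through replicate 1, Zp3 and Gdf9 only through replicate 5 and Piwil3 only through replicate 2, while Mos, Tet1, Zp4, Oosp2 and Piwil1 lie apart.

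Genes of meiosis were called in both directions. Of 32 compared genes of meiotic arrest and maturation, 1 was called higher and 2 lower. Mos, the kinase that holds the mature egg in metaphase through MAP kinase, had 10.97 CPM in guinea pig (269 counts, 95% exact Poisson interval 9.70 to 12.4 CPM, for counting error only) and 256, 374, 328, 353 and 454 CPM in naked mole-rat replicates 1 to 5, a ratio of 23.3. Arpp19, a substrate of Greatwall kinase that inhibits a phosphatase at meiotic entry, had 15.7 CPM and 187, 264, 244, 250.2 and 173 CPM, a ratio of 11.04. Map2k1, the MAP kinase kinase that acts below Mos, was in the opposite direction, with 497 CPM and 96.8, 89.3, 72.4, 107 and 108 CPM, a ratio of 4.62 that fell under 4 with TMM scaling. Of genes known to keep the oocyte in prophase arrest, 3 are given here, and none of them was called. The oocyte Cdk1 inhibitor Wee2 (1332 CPM) was above naked mole-rat replicate 1 (768 CPM) and below the other 4 (1629 to 2550.3 CPM). The phosphodiesterase gene Pde3a (284 against 98.9 to 225 CPM) and the receptor gene Gpr3 (183 against 59.2 to 80.5 CPM), which set cyclic AMP in the arrested oocyte, were above every naked mole-rat library by less than 4-fold.

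Of 30 spindle and kinetochore genes, 2 were called higher. Cenpf, a large kinetochore protein gene, had 1234 CPM in guinea pig and 182, 57.7, 27.0, 69.3 and 88.5 CPM in naked mole-rat, highest in replicate 1, a ratio of 6.80 (13.9 without it). Zw10, a checkpoint gene, had 122.9 against 13.5 to 26.7 CPM and was under 4-fold with TMM scaling. Of 22 compared genes of synapsis and recombination, stages that precede oocyte growth, 3 were called higher (13.6%, against 8.95% of all genes) and 0 lower. The 3 genes were admitted through guinea pig alone. They were at low levels in guinea pig, with Hormad2 at 31.9 CPM against 0 counts in 4 naked mole-rat libraries and 0.643 CPM in replicate 5, Mei4 at 26.9 against 0 to 0.843 CPM and Terb2 at 13.8 against 0.724 to 3.33 CPM. Of 19 genes of egg activation and calcium, Itpr2 was called higher and Trpm7 lower. The main calcium release channel gene of the egg, Itpr1, had 534 CPM in guinea pig and 389, 701, 663, 579 and 559 CPM in naked mole-rat, so that only replicate 1 was below guinea pig. Its paralog Itpr2 had 303 CPM in guinea pig and 15.99, 32.2, 13.9, 24.4 and 25.7 CPM in naked mole-rat, a ratio of 9.41. Trpm7, an ion channel gene of calcium and magnesium entry, had 44.9 CPM and 274, 309.9, 356, 286 and 235 CPM, a ratio of 5.24. The list median was 0.86, and 0.46 to 1.43 against single libraries.

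Small RNA pathways lay on opposite sides of the all-gene median. Of 23 compared piRNA genes, 14 were above every naked mole-rat library and 3 below (37.2% and 29.1% of all genes), and 3 were called higher and 1 lower. The list median was 1.38, 1.10 to 1.80 against single libraries and 1.16 with TMM scaling. Piwil1, a PIWI protein gene of the germline, had 305 CPM in guinea pig and 11.3, 21.6, 26.6, 18.7 and 31.0 CPM in naked mole-rat, a ratio of 9.86. Pnldc1, the exonuclease that trims piRNA ends, had 675 CPM and 16.8, 41.9, 25.7, 36.1 and 34.8 CPM, a ratio of 16.1. Tdrkh, which anchors that trimming at mitochondria, had 647 against 47.9 to 154 CPM, under 4-fold with TMM scaling. Piwil2 was the exception, with 4.89 CPM in guinea pig and 38.2, 89.0, 74.3, 51.6 and 71.8 CPM in naked mole-rat, a ratio of 7.80. Piwil3, the oocyte PIWI gene that mouse lacks, was inside the naked mole-rat range (295 against 86.3 to 322 CPM), and above it without replicate 2. Of 15 genes of the miRNA and siRNA pathways none was called, 3 were above every naked mole-rat library and 8 below (20% and 53.3%), and the median was -0.67, -0.92 to -0.24 against single libraries. Dicer1, the small RNA nuclease, had 63.6 CPM in guinea pig, below every naked mole-rat library (161 to 310.2 CPM), whereas Ago2, for an Argonaute protein, had 121 CPM, under replicate 1 (235 CPM) and above the other 4 (45.0 to 93.3 CPM).

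Of 18 compared genes of the DNA methylation machinery, 0 were called higher and 3 lower. Tet1, a dioxygenase that starts removal of methyl groups, had 19.0 CPM in guinea pig and 348, 677, 927, 783 and 668 CPM in naked mole-rat, a ratio of 18.4 (35.2 without replicate 1). Tet3, which acts in the zygote in mouse, had 689.8 against 714 to 1182 CPM, just below the lowest library. Mbd2, a methyl-CpG-binding protein gene, had 6.24 CPM and 80.6, 184, 293, 154 and 97.1 CPM, a ratio of 12.9. Trdmt1, which methylates transfer RNA, had 1.96 against 18.6 to 34.1 CPM. The de novo enzymes lay in opposite directions without a call, Dnmt3a with 843 CPM below 1231 to 2385 CPM and Dnmt3b with 2704 CPM above 465 to 1041 CPM.

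Histone modifiers were seldom called. None of 19 compared genes of histone H3K4 methylation, 14 of H3K36 and H3K79 methylation and 17 of histone chaperones was called. Of 35 Polycomb genes, 2 paralogs of a deubiquitinase complex were called higher. Asxl1 had 553 against 83.8 to 123.2 CPM and Asxl3 had 89.0 against 4.33 to 8.58 CPM, whereas the H3K27 methyltransferase gene Ezh2 had 34.6 CPM, below 73.3 to 142 CPM. Of 19 genes of H3K9 methylation, the methyltransferase gene Suv39h2 was called higher (351 against 34.3 to 65.3 CPM) and the demethylase gene Kdm3b lower (29.2 against 168 to 222 CPM). Of 27 histone acetylation genes, the acetyltransferase gene Kat7 was called higher (345 against 31.7 to 63.4 CPM). The deacetylase gene Sirt2 (2.33 against 28.2 to 63.2 CPM) and Brdt, a bromodomain gene known from male germ cells, were called lower. Brdt had 19.9, 66.7, 80.5, 73.1 and 41.0 CPM in naked mole-rat and 0.408 CPM in guinea pig. Of 31 remodeller genes, Smarcd2 was called higher (243 against 30.1 to 43.4 CPM) and Chd2 lower (8.48 against 102 to 165 CPM).

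Few genes of protein synthesis were called, except that mitochondrial ribosomal protein genes were called lower at about the share of all genes. Of these lists, the median of the cytosolic ribosomal proteins depended most on the library. Of 74 cytosolic ribosomal protein genes, 1 was above every naked mole-rat library and 22 were below, 1.35% and 29.7% against 37.2% and 29.1% of all genes, so that the share below was that of all genes. In this list 1 was called, Rpl6 at 122 CPM against 489 to 631 CPM, just past 4-fold and for a gene with many processed copies. The list median was -0.67, against -0.01 without naked mole-rat replicate 1, where that of all genes was 0.29. The summed level of the list was 26849.5 CPM in replicate 1, 5477 to 11023 CPM in replicates 2 to 5 and 6853 CPM in guinea pig. The median thus moved with the library that had the highest granulosa markers, and their part in it was not tested. Of 73 mitochondrial ribosomal protein genes, Mrps33 was called higher (122 against 14.6 to 30.2 CPM), though not under 3 of the other scalings. In this list 6 were called lower, 8.22% against 8.35% of all genes. Among them were Mrpl17 (2.12 against 30.0 to 45.2 CPM) and Mrpl19 (3.51 against 40.9 to 65.3 CPM). Of 56 translation factor genes, Eif4ebp1, a repressor of cap-dependent translation, was called higher with 32.2 CPM in guinea pig and 6.07, 0, 0, 0 and 0.643 CPM in naked mole-rat. Among the 2 called lower was Eif2b1 (4.16 against 28.2 to 70.1 CPM). Of 33 aminoacyl-tRNA synthetase genes, 18 were above every naked mole-rat library and 4 below (54.5% and 12.1%, against 37.2% and 29.1% of all genes), with a median of 0.71, 0.13 to 1.21 against single libraries. Aars, for alanine, was called (408 against 57.5 to 91.7 CPM), though not under TMM scaling.

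Few genes of splicing and the nuclear pore were called. Mediator genes were called lower, RNA polymerase genes higher and numbered zinc finger genes in both directions, at shares near those of all genes. Of 30 Mediator subunit genes, 0 were called higher and 2 lower (6.67%, against 8.35% of all genes). They were Med15 (7.99 against 97.1 to 156 CPM) and Med17 (8.08 against 41.8 to 68.9 CPM). Of 26 RNA polymerase subunit genes, 2 were called higher (7.69%, against 8.95% of all genes) and 0 lower. Among the higher was the polymerase III subunit gene Polr3d (100.1 against 2.10005 to 21.5 CPM). Of 69 SR and hnRNP splicing genes, 1 was called lower, Hnrnpk at 79.6 against 418 to 499.5 CPM. Of 21 nucleoporin genes, Nup210l was called higher (11.6 against 0.0724 to 2.20 CPM). Of 188 compared numbered zinc finger genes, 14 were called higher and 15 lower, 7.45% and 7.98%. Zfp42, a marker of pluripotent cells in mouse, had 39.9 CPM in guinea pig and at most 0.749 CPM in naked mole-rat, and Znf891 had 23.1 against 0 to 1.36 CPM. Znf174 (0.938 against 27.5 to 62.9 CPM) and Znf34 (1.10 against 25.8 to 57.1 CPM) were called lower.

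**Figure D4:**
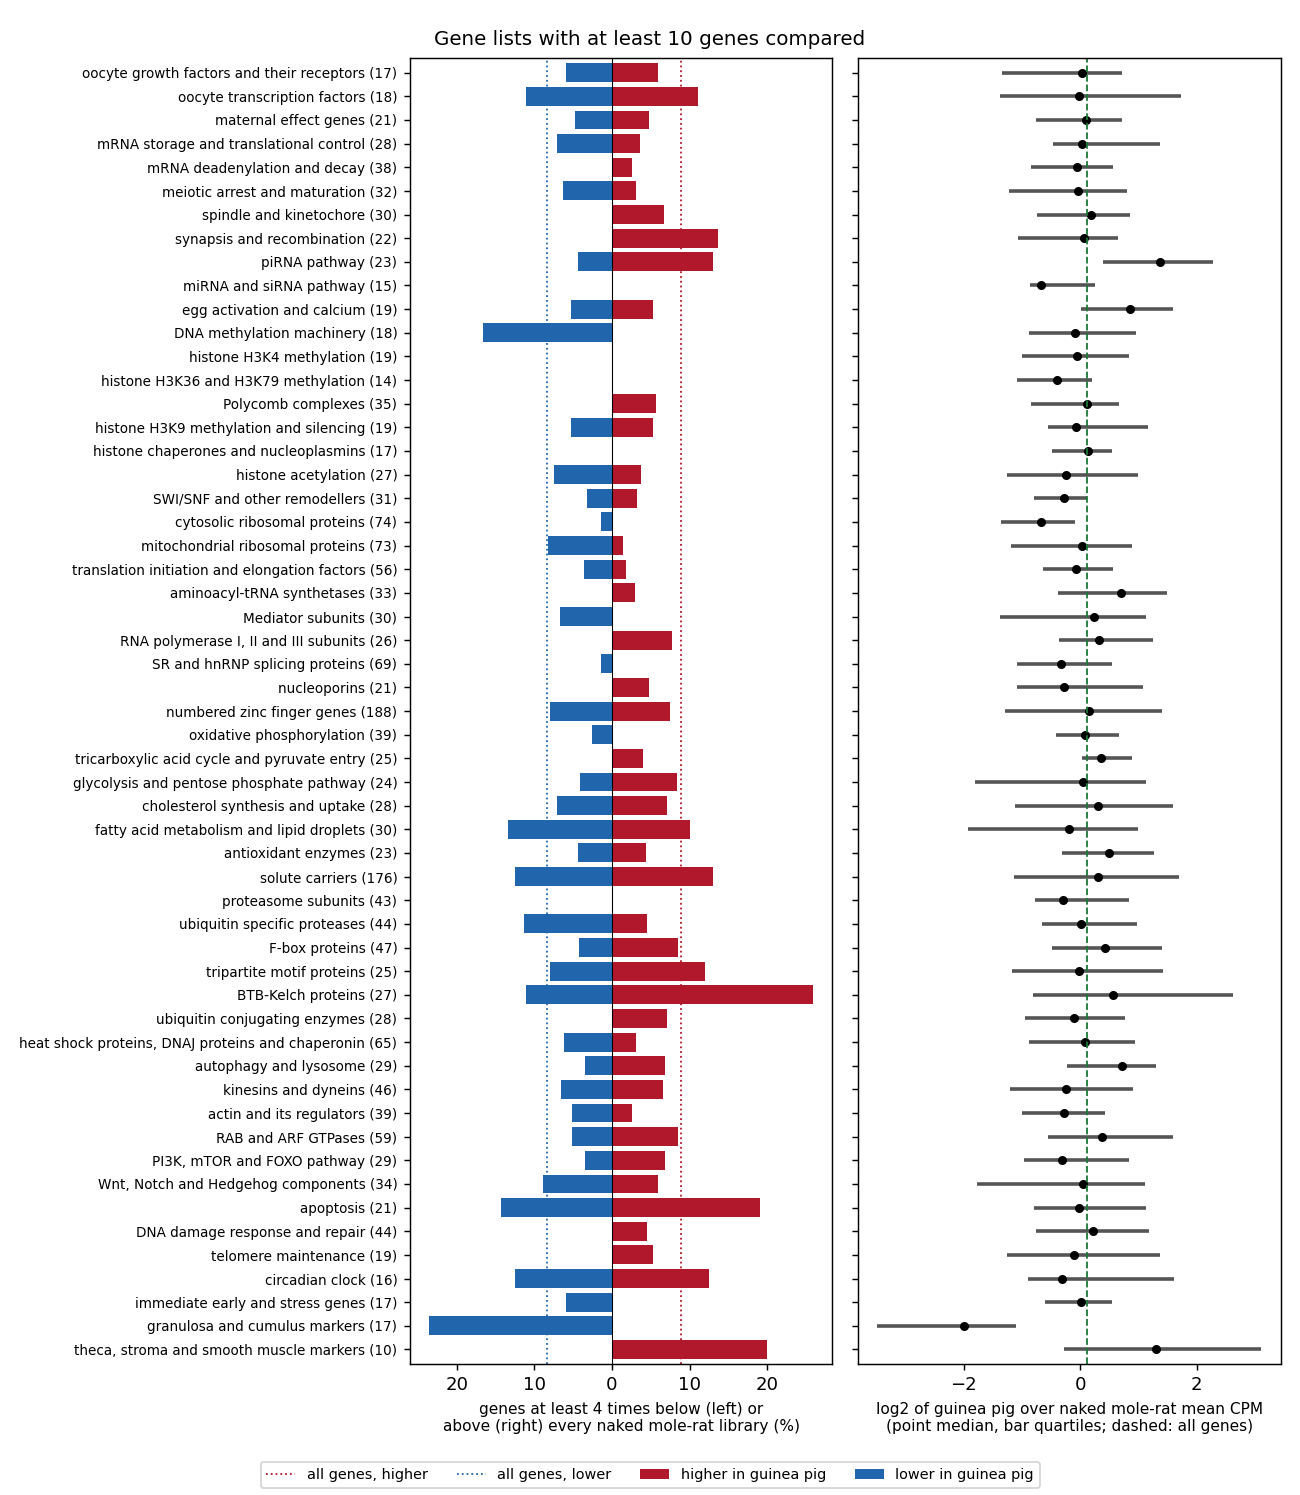
For each gene list with at least 10 compared genes (number in brackets), the left panel gives the percentage called higher (red, to the right) and lower (blue, to the left) in guinea pig, with dotted lines at 8.95% and 8.35% for all genes. The right panel gives the median and quartiles of the log2 ratio of guinea pig to naked mole-rat mean CPM, with a dashed line at 0.12 for all genes.

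In lipid metabolism the calls fell on both sides. Of 30 compared genes of fatty acid metabolism and lipid droplets, 3 were called higher and 4 lower. Besides Dgat2, the genes called higher were Pnpla2, which encodes the lipase that opens triglyceride breakdown (38.7 CPM in guinea pig and 5.11, 2.31, 2.53, 1.46 and 3.35 CPM in naked mole-rat), and the fatty acid binding protein gene Fabp3 (110.4 CPM and 7.18, 8.61, 11.3, 17.8 and 13.4 CPM). Lower were Lipe, which encodes hormone-sensitive lipase (0.775 CPM and 27.6, 16.2, 28.4, 13.8 and 26.8 CPM), and a pair of genes of mitochondrial beta-oxidation. Acadm, for the medium-chain dehydrogenase, had 3.34 CPM and 32.5, 70.7, 82.3, 82.3 and 54.4 CPM, and Hadhb, for a subunit of the trifunctional protein, had 54.8 CPM and 262, 382, 379, 406 and 492 CPM. The lipid droplet coat gene Plin2 was inside the naked mole-rat range, with 411 against 223 to 593 CPM, and above it without replicate 5. Of 28 genes of cholesterol synthesis and uptake, 2 were called higher and 2 lower. Lss, for lanosterol synthase, had 479 against 63.0 to 83.8 CPM, and Ebp, for a sterol isomerase, had 197 against 20.4 to 36.3 CPM. Among those called lower was Dhcr7, which encodes a reductase of the last steps (5.59 against 54.5 to 83.6 CPM).

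Of 24 genes of glycolysis and the pentose phosphate pathway, Eno2, an enolase gene known from neurons (163 CPM against 9.92, 5.17, 0, 1.60 and 1.76 CPM), and Aldoc, an aldolase gene (37.0 against 0.571 to 6.14 CPM), were called higher. Tpi1, for triosephosphate isomerase, was called lower (21.0 against 138 to 225 CPM). The list median was 0.05, and 0.94 without naked mole-rat replicate 1 (0.29 for all genes), in which the summed level was 4607 CPM against 1533 to 2597 CPM in the others. Of 25 genes of the tricarboxylic acid cycle and pyruvate entry, the malic enzyme gene Me1 was called higher (129 against 1.45 to 19.1 CPM). For oxidative phosphorylation, 40 of 72 symbols were matched, and of 39 compared 1 was called, Ndufb9 at 3.18 against 36.5 to 87.6 CPM. Of 23 antioxidant genes, Sod3, for extracellular superoxide dismutase, was called higher (8.73 against 0 to 1.85 CPM) and Txnrd2, for mitochondrial thioredoxin reductase, lower (7.75 against 38.4 to 95.6 CPM).

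Of 326 matched solute carrier genes, which encode membrane transporters, 176 were compared. Of these, 23 (13.1%) were called higher and 22 (12.5%) lower, against 8.95% and 8.35% of all genes. Besides Slc15a1 and Slc16a14, the vesicular glutamate transporter gene Slc17a8 (11.8, 30.6, 41.5, 28.6 and 36.4 CPM in naked mole-rat and 3 counts in guinea pig) and the amino acid transporter gene Slc6a17 (0.245 against 35.8 to 75.4 CPM) were lower. Slc6a11, a GABA transporter gene, had 62.6 CPM in guinea pig against 0.217 to 1.43 CPM. Slc17a4 had 32.1 CPM in guinea pig and 0 counts in every naked mole-rat library, at least 144-fold higher. Among the matched members, 53 had 0 counts in guinea pig and 40 had 0 counts in every naked mole-rat library.

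None of 43 compared proteasome genes was called. Families that choose the substrates of ubiquitin ligases are described next. Of 41 matched BTB-Kelch genes, which encode adaptors of cullin ubiquitin ligases, 27 were compared. Of these, 7 were called higher and 3 lower, 25.9% and 11.1% against 8.95% and 8.35% of all genes. The list median was 0.57, but -0.15 with no minimum. Klhl3, which targets WNK kinases in kidney, had 147, 285, 295, 297 and 268 CPM in naked mole-rat and 9.67 CPM in guinea pig, and Klhl6, a B cell gene in mouse, had 18.8, 50.9, 25.6, 36.6 and 48.6 CPM and 0.204 CPM. Klhl32 had 122 CPM in guinea pig against 7.75 to 16.1 CPM, and Klhl28 had 93.2 CPM against 10.2, 0, 0, 0.357 and 1.79 CPM, so its ratio of 9.12 was set by replicate 1 (52.0 without it). Of 25 tripartite motif genes, 3 were called higher and 2 lower. Trim36, a ubiquitin ligase gene, had 191 CPM in guinea pig (4690 counts) and 0.444, 0, 0, 0 and 0.507 CPM in naked mole-rat, and Trim66 had 0.245 against 12.3 to 18.2 CPM. Of 47 F-box genes, 4 were called higher and 2 lower. Fbxo27, whose product binds glycoproteins, had 82.0 CPM in guinea pig and 0.222, 0, 0, 0 and 0.541 CPM in naked mole-rat, and Fbxo40 had 125 against 0.812 to 7.07 CPM. Fbxo17 was lower (5.43 against 37.1 to 83.5 CPM).

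Of 44 ubiquitin specific protease genes, 2 were called higher and 5 lower. Usp43 had 1439.6 CPM in guinea pig and 59.7, 109, 82.9, 62.9 and 117 CPM in naked mole-rat, a ratio of 12.3, opposite in direction to Usp2. Usp35 was lower (3.14 against 46.1 to 87.5 CPM). Of 28 ubiquitin conjugating enzyme genes, 2 were called higher, Ube2f, which conjugates NEDD8 (160.4 against 1.38 to 27.0 CPM), and Ube2g2, which acts in degradation at the endoplasmic reticulum (125 against 0.362 to 26.5 CPM). Of 65 heat shock, DNAJ and chaperonin genes, 2 were called higher and 4 lower. Hspa6 had 6.73 CPM in guinea pig (0 to 1.503 in naked mole-rat), under 4-fold with TMM scaling. The co-chaperone genes Bag2 (1.84 against 19.0 to 35.7 CPM) and Dnajc18 (7.83 against 57.3 to 101 CPM) were lower. Of 29 autophagy and lysosome genes, 16 were above every naked mole-rat library and 4 below (55.2% and 13.8%, against 37.2% and 29.1% of all genes), with a median of 0.72, 0.30 to 1.18 against single libraries. Atg4d, a protease gene of autophagosome formation, had 125 against 9.92 to 21.6 CPM, whereas the lysosomal membrane gene Lamp2 was called lower with 7.46 CPM and 150.01, 204, 181, 172 and 219 CPM, a ratio of 20.1.

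Among cytoskeletal genes, Tubb4a was called lower (12.9 against 94.6 to 155 CPM). Its close paralog Tubb4b was above every naked mole-rat library, and by less than 4-fold over the highest. Reads could be shared between such paralogs. Of 46 kinesin and dynein genes, 3 were called in each direction. Kif19, a kinesin gene of cilia, had 135 CPM in guinea pig and 0.370, 0.623, 0, 0 and 0.406 CPM in naked mole-rat. The dynein light chain gene Dynlt3 had 112 against 2.03 to 7.68 CPM, and the neuronal kinesin gene Kif1a was lower (1.84 CPM against 138, 28.4, 32.7, 34.6 and 58.8 CPM). Of 39 genes of actin and its regulators, Spire1 was called higher (331 against 16.9 to 64.9 CPM), and 2 were lower, among them the formin gene Fmn1 (3.88 CPM against 68.5, 116, 123.03, 104 and 172 CPM). Fmn2, the formin that moves the meiotic spindle together with Spire proteins in mouse oocytes, had 73.4 CPM in guinea pig, above naked mole-rat replicate 1 (61.1 CPM) and below the other 4 (110.0 to 201 CPM). Of 59 RAB and ARF GTPase genes, 5 were called higher and 3 lower. Rab29 had 147 CPM in guinea pig against 4.23 to 10.3 CPM, and Rab15 had 123.4, 248, 242, 209 and 317 CPM in naked mole-rat against 5.996 CPM in guinea pig. Connexins, which build the gap junctions between oocyte and granulosa cells, were mostly too low to compare (6 of 19). Gja4, the oocyte connexin of mouse, had 131 CPM, above 37.1 to 97.8 CPM without a call, and Gja1, the granulosa connexin, had 92.8 CPM, inside 26.6 to 710.4 CPM. Of 2 called lower, Gjb5 had 0 counts against 8.44 to 22.4 CPM, at least 68.9-fold lower (106-fold without replicate 1), and Gja3 was called higher (5.38 CPM against 0.740 CPM in replicate 1 and 0 counts in the others).

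In signalling, Notch, Wnt and phosphoinositide genes were called in both directions. Of 34 Wnt, Notch and Hedgehog genes, 2 were called higher and 3 lower. Notch1 had 5.91 CPM in guinea pig and 299, 122.7, 86.7, 126 and 168 CPM in naked mole-rat, and Axin2, a target and inhibitor of Wnt signalling, had 43.8 CPM and 184, 437, 373, 395 and 452 CPM. Dll3, a divergent Notch ligand gene, had 48.2 CPM and 2.29, 0, 0, 0.535 and 1.08 CPM, and Lef1, a Wnt-responsive transcription factor gene, 58.6 CPM and 13.7, 0.513, 3.48, 4.17 and 8.02 CPM. Of 29 genes of the PI3K, mTOR and FOXO pathway, 2 were called higher, Eif4ebp1 and the catalytic subunit gene Pik3cd (61.9 against 0 to 13.2 CPM), and the phosphatase gene Inpp4b lower (2.57 against 22.2 to 34.5 CPM).

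Of 21 compared apoptosis genes, 4 were called higher and 3 lower, 19.0% and 14.3% against 8.95% and 8.35% of all genes. Of those named here, Bik and Bid were admitted through guinea pig alone. Pmaip1 and Tp63 were admitted through naked mole-rat alone. Among the lower genes was Pmaip1, which encodes the BH3 protein NOXA, with 42.9, 96.6, 73.4, 95.7 and 50.5 CPM in naked mole-rat and 0 counts in guinea pig, at least 351-fold lower. Tp63, whose TAp63 form removes damaged oocytes in mouse, had 10.9, 28.9, 38.8, 50.3 and 32.8 CPM in naked mole-rat and 0.408 CPM (10 counts) in guinea pig, a ratio of 26.7 (70.8 without replicate 1). Other BH3 genes were called in the opposite direction. Bik had 11.7 CPM in guinea pig (288 counts) and 0 counts in every naked mole-rat library, at least 52.9-fold higher, and Bid had 60.8 CPM against 14.1, 3.92, 0, 1.03 and 4.70 CPM. Diablo, for a mitochondrial antagonist of caspase inhibitors, had 98.1 against 10.7 to 20.3 CPM, under 4-fold with TMM scaling.

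Of 44 DNA damage response genes, 2 were called higher. Xrcc6, for the Ku70 subunit of end joining, had 253 against 24.98 to 60.0 CPM, and the oxidised-guanine glycosylase gene Ogg1 had 46.5 against 2.57 to 8.66 CPM. Of 19 telomere genes, Tnks2, a tankyrase gene, was called higher (279 CPM against 57.1, 8.36, 17.8, 17.4 and 17.4 CPM). Of 16 clock genes, 2 were called in each direction. Per2 had 22.8 CPM in guinea pig and 4.44, 0.403, 0, 0.392 and 0 CPM in naked mole-rat, and Rora had 69.0 CPM and 3.70 to 16.9 CPM, under 4-fold with 2 of the other scalings. Bhlhe40, a repressor within the clock, had 1.468 CPM and 50.6, 141, 102, 148 and 132 CPM, a ratio of 34.5 (69.2 without replicate 1), and Npas2 was lower as given above. Of 17 immediate early and stress genes, which can respond to dissection, Fosb was called lower (7.10 against 117 to 222 CPM), and Fos had 16.4 CPM in guinea pig and 75.9, 0.110, 1.014, 3.60 and 5.48 CPM in naked mole-rat, highest in replicate 1. Their part in the other results was not tested.

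Markers of other ovarian cells differed in level between libraries, and the red cell list was near 0 in guinea pig. Of 18 matched granulosa and cumulus markers, 17 were compared, with 0 called higher and 4 lower, and the median of -1.99 ran from -3.35 to 0.24 against single naked mole-rat libraries. The list thus depended on the library. Amh, a hormone gene of granulosa cells, had 23.5 CPM in guinea pig and 1203, 19.6, 9.99, 6.99 and 66.5 CPM in naked mole-rat, Inha had 33.5 CPM and 197, 0.550, 0.869, 1.57 and 32.9 CPM, and Fshr had 5.71 CPM and 96.1, 4.84, 21.7, 15.98 and 10.3 CPM, so that each guinea pig value lay inside the naked mole-rat range, far below replicate 1, without which Inha was above the range. Without replicate 2, Fshr was below it. The 4 called genes were lower than in every library. Foxl2 had 2.77 CPM and 229.6, 66.6, 56.8, 88.1 and 132 CPM, Gatm, a creatine synthesis gene, 0.245 CPM and 39.1, 117, 61.2, 114 and 86.1 CPM, and Tnfaip6, a gene of the cumulus matrix, 2.24 CPM and 22.4, 16.1, 21.4, 31.1 and 16.4 CPM, besides Has2. No matched granulosa marker was at 0 in guinea pig.

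Stromal markers were higher in guinea pig in their sum. Of 10 compared of 17 matched theca, stroma and smooth muscle markers, 2 were called higher and 0 lower, with summed levels of 417 CPM in guinea pig and 32.3 to 274 CPM in naked mole-rat. The fibrillar collagen gene Col3a1 made up most of the guinea pig sum, with 228 CPM against 41.1, 0, 1.88, 1.93 and 0.846 CPM, and the proteoglycan gene Dcn had 8.08 against 0 to 1.498 CPM. Col1a1 (68.7 CPM against 126, 2.57, 27.7, 1.498 and 9.07 CPM) and Col1a2 (54.3 CPM against 19.1, 0, 0, 3.57 and 0.643 CPM) were not called, the latter because of replicate 1, without which it was called higher. Of 8 compared of 11 matched endothelial markers, 2 were called higher, with summed levels of 606 CPM in guinea pig and 118 to 296 CPM. Tek, a receptor gene of this list, had 449.8 CPM against 37.7 to 159 CPM, while the defining genes Cdh5 (8.73 against 0 to 1.33 CPM), Kdr (11.6 against 0 to 2.46 CPM, under 4-fold with TMM scaling) and Pecam1 (4.81 against 5.65 to 27.9 CPM) were low.

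Sums of the surface epithelium, immune and red cell lists were lower in guinea pig than in every naked mole-rat library. Of 9 matched surface epithelium markers, 4 were compared and 2 called lower, Epcam (0.816 CPM against 78.1, 34.0, 70.3, 66.7 and 35.6 CPM) and Lhx9 (0.530 against 18.4 to 51.3 CPM), with sums of 422 CPM and 533 to 1229 CPM that came mostly from Cdh1, which oocytes also express (405 against 357 to 1079 CPM, and 701 to 1079 CPM without replicate 1). The keratin gene Krt18 had 0.653 CPM in guinea pig and 55.9, 0, 6.01, 1.60 and 4.23 CPM in naked mole-rat. Of 15 matched immune markers, 2 were compared and 1 called lower, and sums were 14.3 CPM in guinea pig and 43.1 to 128 CPM in naked mole-rat. The pan-leukocyte gene Ptprc had 2 counts in guinea pig and 0.169 to 3.33 CPM in naked mole-rat. Of 4 matched red cell markers, with sums of 0.122 CPM in guinea pig and 11.48 to 42.3 CPM in naked mole-rat, 1 was compared and called lower. Epb42, a red cell membrane skeleton gene, had 0 counts in guinea pig and 11.2 to 37.8 CPM in naked mole-rat, and Slc4a1, which defines red cells, had 0 counts in guinea pig and at most 2 counts in a naked mole-rat library. The part of these cells in the differences between species was not tested.

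**Figure D5:**
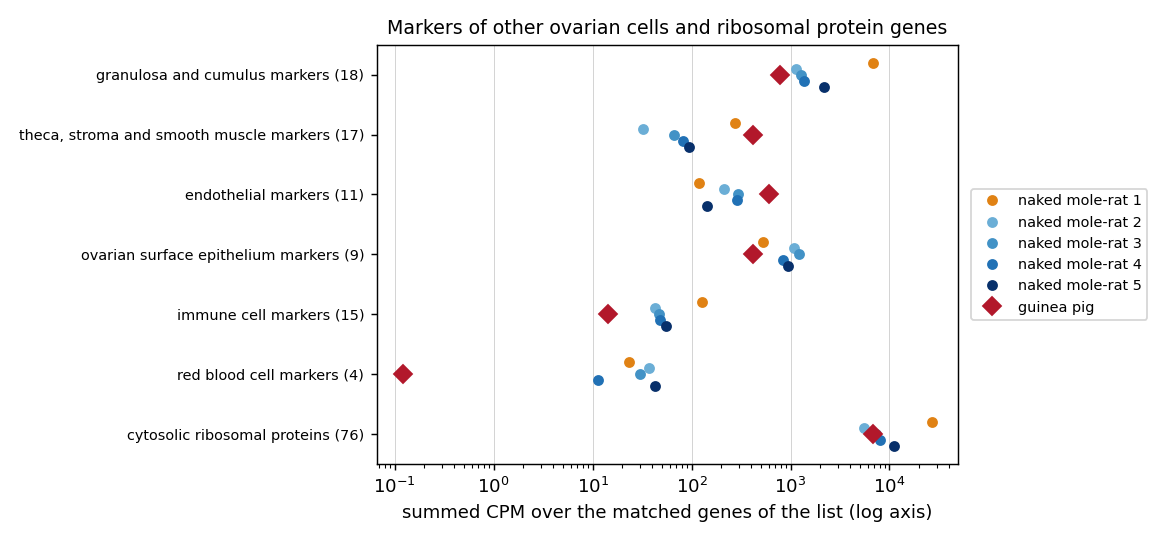
Summed CPM (log axis) over the matched genes of 6 marker lists and of the cytosolic ribosomal proteins (number of genes in brackets), with guinea pig as diamonds and naked mole-rat replicates 1 to 5 as circles. Replicate 1, in orange, is highest for granulosa markers, immune markers and ribosomal proteins, and guinea pig is above every naked mole-rat library for stromal and endothelial markers.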

How the data were processed

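RNA-seq counts of 6 oocyte libraries, 1 of guinea pig and 5 of naked mole-rat, were analysed as deposited. Reads were mapped by the authors with HISAT2, those of naked mole-rat after trimming with Trim Galore. The assemblies were HetGla_female_1.0 for naked mole-rat and Cavpor3.0 for guinea pig. The deposited values are raw counts per gene from SeqMonk, without normalization. The submitters' processing notes name Trim Galore 0.6.1 and HISAT2 2.1.0, and the study's methods name other releases of both. Not given in the sources used here were the annotation, transcript lengths, use of strand and treatment of multiply mapped reads in counting, so genes with near-identical copies or with overlapping neighbours are uncertain.

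Groups were taken from the sample titles. CPM was computed on column totals (Python 3.11.15, pandas 2.3.3). No entry was blank. Of the symbols, 10737 in naked mole-rat and 9783 in guinea pig begin with LOC, and 26 in each table look like dates, and 4 guinea pig symbols with several entries were dropped. Calls needed a 4-fold difference from the nearest naked mole-rat library, with no test because guinea pig has 1 library, and the intervals and the 3-count limit cover counting error only. The call rule was tested on simulated data. All simulated libraries came from 1 common profile, so this checks the code and not how well the rule suits these libraries. Genes are named by a rule: the 15 called each way with the largest ratio, at least 100 CPM in the higher species and more than 3 counts in every library of the lower one, the 10 called each way with the highest level and 3 counts or fewer in the other species, the 10 most abundant per species, up to 6 members per list, and 4 oocyte markers. Some genes that the rule names are not reported here. The members and the lists were chosen with earlier results of these data known. Alternatives were other scalings (TMM of edgeR 4.0.16 and median-of-ratios of DESeq2 1.42.0 in R 4.3.3), other minimums and folds, and leaving out each naked mole-rat replicate.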

Additional observations from a re-analysis of the deposited data

Results flagged for a closer look

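For 41 of 229 named genes whose naked mole-rat values were not all equal, 1 naked mole-rat library stood so far from the other 4 that its gap to the nearest of them, as a share of the whole range, was above Dixon's 95% limit for 5 samples (0.71). Chance flags about 1 in 20 groups. The share is given in brackets after each gene. Replicate 1 was the highest library for 28 genes and the lowest for 5.

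Among the genes highest in replicate 1 were markers of cells other than the oocyte, or genes that can respond to handling, namely Amh (0.950), Col1a1 (0.789), Col1a2 (0.813), Col3a1 (0.953), Fos (0.929), Fshr (0.815), Gja1 (0.802), Inha (0.836) and Krt18 (0.893). Others highest in replicate 1 were Ago2 (0.745), Atg4d (0.871), Eif4ebp1 (0.894), Kif1a (0.722), Klhl28 (0.824), Per2 (0.909), Sod3 (0.923), Tnks2 (0.806), Ube2f (0.724) and Zbed3 (0.810). The share is 1.000 by construction where only 1 library had any counts, as for Clec4g (1.000), Fgf18 (1.000), Gbgt1 (1.000), Gja3 (1.000), Sebox (1.000), Slc4a1 (1.000), Sox2 (1.000), Susd3 (1.000) and Tle6 (1.000) in replicate 1 and Hormad2 (1.000) in replicate 5.

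Replicate 1 was the lowest library for Cpeb1 (0.731), Fgfr2 (0.742), Klf17 (0.742), Klhl3 (0.812) and Ybx2 (0.723). Replicate 5 was the highest for Gja4 (0.714), Med15 (0.817), Mycbpap (0.780) and Tubb4a (0.858), and replicate 3 for Pecam1 (0.726) and Trim66 (0.854). Replicate 3 was the lowest for Esrrb (0.751), which had 0 counts there. The guinea pig library has no replicate, so the same check could not be made on it.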

How the results depend on the processing

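Leaving out 1 naked mole-rat replicate gave 933 to 1420 genes called higher and 874 to 1058 lower, the most without replicate 1, and under a rule on the nearest library it can only add calls to the 920 and 858. Other scalings gave 826 to 924 higher and 857 to 925 lower, and TMM moved the share of higher calls among all calls from 51.7% to 47.2%. With at least 1000 counts, 543 were higher and 217 lower (71.4% of calls higher). Thresholds of 2-fold gave 1906 and 1555, of 8-fold 467 and 510, and a 4-fold difference from the naked mole-rat mean gave 1655 and 1384. With no minimum, 1139 and 1170 of 14302 genes were called, and with a mean of at least 5 CPM 797 and 934. List medians moved by more than their SD over naked mole-rat libraries for 28 lists with at least 1000 counts, 13 with no minimum and 19 with TMM. Those of BTB-Kelch genes (0.57) and solute carriers (0.31) were 1.16 and 1.04 with at least 1000 counts and -0.15 and -0.31 with no minimum. Of 184 called genes named, 12 fell under 4-fold with a scaling (Aars, Astl, Cnot11, Cpeb4, Diablo, Hspa6, Kdr, Map2k1, Mrps33, Rora, Tdrkh and Zw10) and none reversed, and Accsl, Cd9, Col1a2 and Eef1a1 became called under at least 1 setting. The causes were not tested. No paired analysis was possible because guinea pig has 1 library, so the groups share only the number 1. Precision is limited by that single library, and 3 counts limit values near 0.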

Other observations

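The following groups were assembled after their values were seen, so their counts describe these libraries only and were not tested. Of 22 genes associated with pluripotent cells, 20 were matched and 12 compared, with 4 called higher in guinea pig and 2 lower. Of all compared genes, 8.95% were called higher and 8.35% lower. The 4 higher genes were admitted through guinea pig alone, and Dppa4 among the lower through naked mole-rat alone. Higher were Sox2, Esrrb and Zfp42, described above, and Tfcp2l1, with 57.7 CPM in guinea pig and 2.44, 14.1, 11.51, 5.17 and 6.87 CPM in naked mole-rat replicates 1 to 5. Lower were Klf17 and Dppa4, the latter with 23.0, 37.4, 34.6, 28.7 and 60.2 CPM in naked mole-rat and 0 counts in guinea pig. The core genes Pou5f1 (0.326 CPM in guinea pig and at most 3.86 CPM in naked mole-rat) and Nanog (0 counts in guinea pig and at most 4.14 CPM) were under 5 CPM in every library. Sall4 was abundant in both, with 505 CPM in guinea pig above naked mole-rat replicate 1 (463 CPM) and below the other 4 (857 to 954 CPM).

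Of 35 matched HOX genes, 29 were under 10 CPM in guinea pig and 30 in every naked mole-rat library. Of 10 compared, 4 were called higher in guinea pig and 1 lower, to be read against 8.95% and 8.35% of all genes. The 4 higher genes were admitted through guinea pig alone and the lower one through naked mole-rat alone. Among those called higher, Hoxa9 had 96.6 CPM, Hoxa13 33.2 CPM and Hoxa10 8.73 CPM in guinea pig, while Hoxa9 and Hoxa10 had 0 counts in every naked mole-rat library. Hoxb9 was called lower, with 33.2, 23.2, 21.7, 55.1 and 50.5 CPM in naked mole-rat and 0 counts in guinea pig. Hoxd8 and Hoxd9 were present in both (21.4 CPM against 21.9 to 76.6 CPM, and 23.4 CPM against 8.58 to 19.7 CPM).

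Some genes named above are known from muscle or intestine, and the lists of those tissues were mostly too low to compare. Of 12 matched sarcomere genes, only Ttn, Neb and Myom1 could be compared. Neb, the nebulin gene, had 63.1, 201, 183, 228 and 139.5 CPM in naked mole-rat and 7.75 CPM in guinea pig and was called lower like Ttn, and Myom1 was not called. The other 9 were under 10 CPM in every naked mole-rat library. Of 21 matched brush border genes of intestine and kidney, 8 were compared, with 4 called lower in guinea pig and 2 higher. Of all compared genes, 8.35% were called lower and 8.95% higher. Each called brush border gene was admitted only through the species in which it was higher. Besides Pdzk1, Slc15a1 and Lct, Pdzk1ip1, whose product binds Pdzk1, had 54.0, 86.0, 91.9, 68.6 and 139 CPM in naked mole-rat and 0 counts in guinea pig, whereas the villin gene Vil1 had 0 counts in all 6 libraries. Myo1a, a brush border myosin gene, was called higher in guinea pig with 34.3 CPM against 0, 0, 0, 1.18 and 0.575 CPM, as was the protease gene Mep1b (8.97 CPM against 0 counts in every naked mole-rat library).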
